A study of Mus musculus with 18 samples.

Results

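Cholesterol loading was compared with no loading in LPS-stimulated mouse macrophages that had received no reconstituted high-density lipoprotein (rHDL). The comparison took 6 of the study's 18 RNA-seq libraries, 3 labelled as LPS alone and 3 labelled as cholesterol liposomes and LPS. It was made across all expressed genes, after rows of the count table were summed per gene symbol. All 6 came from C57BL/6J mice, a wild-type inbred strain, whose bone marrow cells were grown into macrophages for 7 days with L929-conditioned medium, a source of macrophage growth factor. Loading was done with liposomes of POPC, a phosphatidylcholine, and cholesterol, ahead of the time at which other groups received rHDL. Cells of both groups were then washed and given LPS (lipopolysaccharide, a bacterial ligand of Toll-like receptor 4) in medium with 4% L929-conditioned medium. The labels leave out the dose and time both of loading and of LPS. Every library of the comparison was LPS-treated, so the effect of loading without LPS was not measured, and liposomes without cholesterol were not among the groups analysed here. The labels do not say whether replicates were separate cultures or animals, so p-values measure only the spread between these samples, which may be technical.

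Cells sense cholesterol in opposite ways through a pair of transcription factor systems. SREBP2, encoded by Srebf2, is held in the endoplasmic reticulum when sterols are plentiful, and when sterols are scarce it is cleaved and drives the genes of cholesterol synthesis and uptake. The liver X receptors (LXR) are activated by oxidised sterols and sterol intermediates and drive genes of cholesterol export and fatty acid synthesis. In macrophages, which take up lipoproteins and dying cells, both systems are known to interact with the inflammatory response to Toll-like receptor ligands.

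The LPS libraries held 10071725, 11106817 and 9528888 counts and the loaded libraries 12225366, 9464916 and 10596719. The first principal component of the 6 libraries (43.6% of the variance) placed the 3 LPS libraries on one side and the 3 loaded libraries on the other. Of 15 macrophage identity genes 13 were tested, with a summed level of 12857 to 13449 CPM, the count scaled to library size, in the LPS libraries and 13069 to 14133 in the loaded libraries. Csf1r, the growth factor receptor, was the only one called, lower with loading (log2 fold change -0.24 ± 0.06, where ± is the standard error; adjusted p = 0.0310 in edgeR's quasi-likelihood test with Benjamini-Hochberg adjustment, used throughout). Its adjusted p was 0.116, 0.0545 and 0.0844 without LPS replicate 1, 2 or 3, 0.0545, 0.145 and 0.0801 without loaded replicate 1, 2 or 3, 0.0843 with library totals alone and 0.0533 without a count filter. Of 8 dendritic cell markers 4 were tested (Itgax, Xcr1, Ccr7 and Bst2, some of which macrophages also express), with a summed level of 476 to 535 CPM in LPS libraries and 430 to 559 in loaded libraries. Of 10 stromal markers 4 were tested, with a summed level of 56.4 to 60.1 CPM in LPS libraries and 44.3 to 72.2 in loaded libraries. Col1a2, a fibrillar collagen chain, was at 8.59 CPM in loaded replicate 3 and between 0.898 and 1.63 in the other 5, so that replicate stands apart for collagen. Of 10 neutrophil markers 2 were tested (12.5 to 15.7 CPM summed in LPS libraries and 7.91 to 9.62 in loaded libraries), and Mpo was at 0 counts. S100a8, a neutrophil and monocyte protein, was lower with loading (log2 fold change -0.92 ± 0.21, adjusted p = 0.0152), a call that ended without LPS replicate 1 or 3 or loaded replicate 1 or 3 (adjusted p = 0.0547, 0.0540, 0.0548 and 0.0699). None of the 4 dendritic, 1 lymphoid and 2 mast, erythroid and megakaryocyte markers tested was called, and Cd3e and Nkg7 were at 0 counts. The part of these other cells in the results was not tested.

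Loading lowered the genes of cholesterol synthesis, raised LXR target genes, and moved most other genes little. Of 8965 genes tested, 358 (3.99%) were called higher with loading and 410 (4.57%) lower at an adjusted p under 0.05, 768 (8.57%) in all, and 2128 had an unadjusted p under 0.05. A count of members called in the lists that follow is set against these shares. The median log2 fold change over all genes was 0.01, with the 5th percentile at -0.50 and the 95th at 0.53. Among called genes the median was 0.47 for those higher and -0.47 for those lower, and 39 rose and 46 fell by at least 1 on the log2 scale. Without any overlap between the groups, 1506 genes (16.8%) were higher and 1442 (16.1%) lower. Because RNA was measured in bulk, fewer cells of a type and less RNA per cell cannot be told apart. Of all calls 46.6% were higher, and when libraries were scaled by their totals alone this share was 71.1% (626 higher and 254 lower), with the median of all genes at 0.09.

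**Figure D1:**
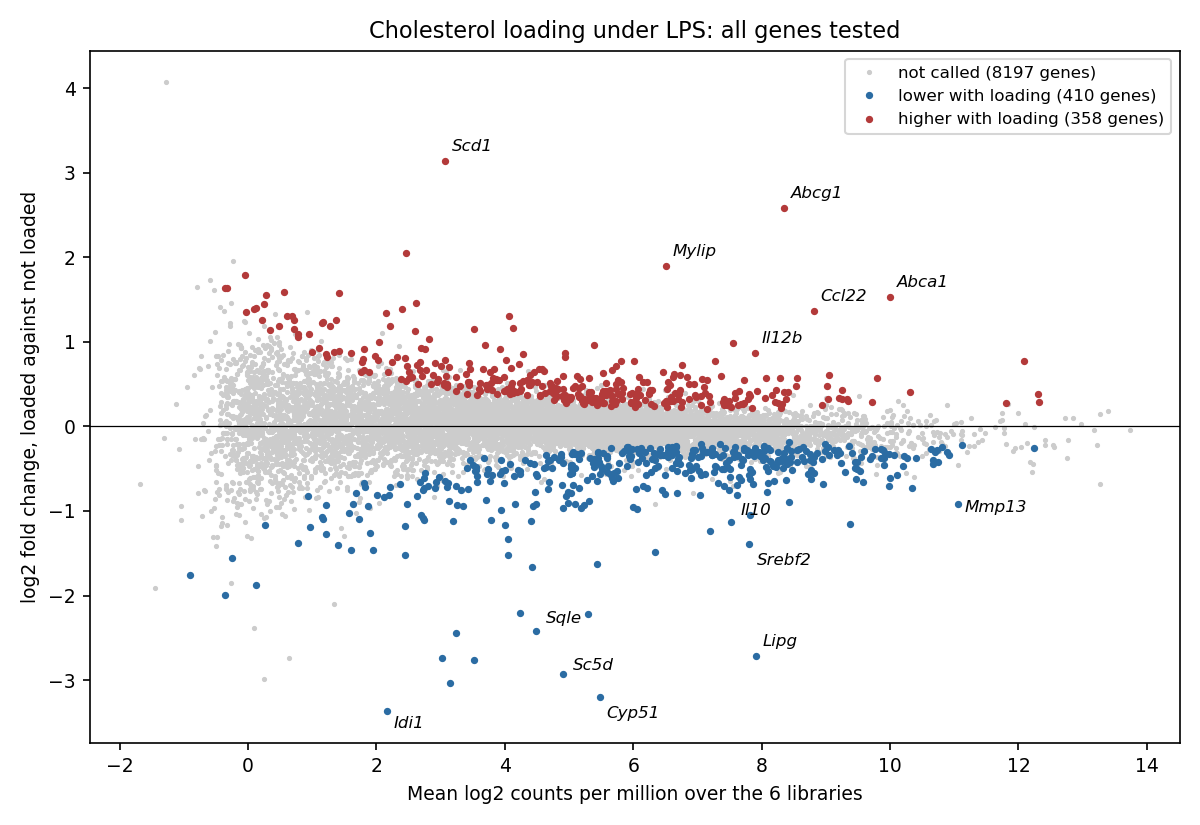
Each point is 1 of the 8965 genes tested, with its mean log2 CPM over the 6 libraries on the x axis and its log2 fold change (loaded against not loaded) on the y axis; red and blue points are the 358 genes called higher and the 410 called lower. The sterol synthesis genes Cyp51 (-3.20), Sc5d (-2.93) and Idi1 (-3.37) lie lowest among the labelled genes, and the LXR targets Scd1 (3.13) and Abcg1 (2.58) lie highest among the called genes.

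The counts depended on single libraries. Leaving out LPS replicate 1, 2 or 3 gave 158, 245 and 169 genes higher and 207, 349 and 212 lower. Leaving out loaded replicate 1, 2 or 3 gave 234, 178 and 161 higher and 243, 218 and 189 lower. When the test asked for a change beyond 1.5-fold, 9 genes were higher and 23 lower. The 9 were Scd1, Abcg1, Mylip, Abca1, Ccl22, Cx3cl1, Zfp422, Marco (a scavenger receptor) and Tmem86a (a lysoplasmalogen-metabolising enzyme). The 23 held 9 enzymes of sterol synthesis, Srebf2, Insig1 and Stard4, and also Lipg, Pcyt2, Il10, Il19, Osmr, Selp, Mmp13, Ezr, Met, Carhsp1 and U90926. Genes in these counts that the naming rule does not take were named after their values were seen.

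The early, mevalonate part of sterol synthesis makes isoprenoid units from acetyl-CoA. All 8 enzymes tested of 10 listed were lower in every loaded library than in every LPS library, against 16.1% of all genes. Of the 8, Fdps and Pmvk were near the floor. They had 11 and 29 counts in all over the LPS libraries and 3 and 22 over the loaded libraries. Of the 8 enzymes 3 (37.5%) were called lower and none higher, with a median log2 fold change of -0.89. Idi1, which isomerises isopentenyl diphosphate (mm10 chromosome 13, 8885606 to 8892396), was at 12.1, 15.6 and 14.1 CPM without loading and 1.06, 0.918 and 2.05 with it. That is 10.3-fold lower (log2 fold change -3.37 ± 0.22, adjusted p = 1.85e-07), and the highest loaded library was far below the lowest LPS library. Fdft1, squalene synthase, fell by 2.76 ± 0.16 on the log2 scale, from 29.6 ± 5.40 to 4.38 ± 0.90 CPM (SD, n = 3). Not called were 5: Fdps (-1.91, under 1 CPM in every library), Pmvk (-0.54), Acat2 (-0.47, adjusted p = 0.0557), Mvk (-0.26) and Ggps1 (-0.21). Acat2 was called in DESeq2 (adjusted p = 0.0237), with its size factors (0.0482), without a count filter (0.0193) and with both groups fitted alone (0.00965). Fdft1 had 73.0% of its exon bases to itself, Pmvk 44.0% and Fdps 14.8%, so part of their reads was not counted. Hmgcs1 and Mvd, with 1.65% and 5.53%, were under the count filter and could hardly be measured.

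The late enzymes turn squalene into cholesterol. Of 12 tested, 9 (75.0%) were called lower and none higher, with a median log2 fold change of -1.67. Cyp51, the lanosterol demethylase (chromosome 5, 4080674 to 4104697), was at 116, 150 and 140 CPM in the LPS libraries and 14.9, 16.1 and 13.2 in the loaded libraries. No library of one group came near the other, and the gene was 9.21-fold lower (log2 fold change -3.20 ± 0.11, adjusted p = 3.17e-10). Sc5d, a sterol desaturase, was at 66.7, 95.2 and 86.1 CPM without loading and at 11, 10.3 and 11.2 with it, a fall of 2.93 ± 0.13 (adjusted p = 3.26e-09). Sqle, squalene epoxidase, was at 41.2, 62.3 and 51.7 CPM without loading and 8.24, 10.4 and 10.5 with it. The groups did not overlap, and Sqle fell by 2.42 ± 0.15 (adjusted p = 1.03e-07). Hsd17b7 fell by 2.44 ± 0.17, the sterol oxidase Msmo1 by 2.22 ± 0.14, lanosterol synthase Lss by 1.11 ± 0.20 and Nsdhl by 0.87 ± 0.09. Lbr, a sterol reductase that also anchors chromatin to the nuclear envelope, had the smallest called fall (-0.33 ± 0.09, adjusted p = 0.0346). Its call ended without LPS replicate 1, 2 or 3 (0.0655, 0.0595 and 0.146 as adjusted p), loaded replicate 1 or 3 (0.121 and 0.163) and with library totals alone (0.13). Dhcr7 (-1.0, adjusted p = 0.176), Ebp (0.09) and Tm7sf2 (0.09) were not called, and Dhcr7 was at or below 2.09 CPM in every library.

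**Figure D2:**
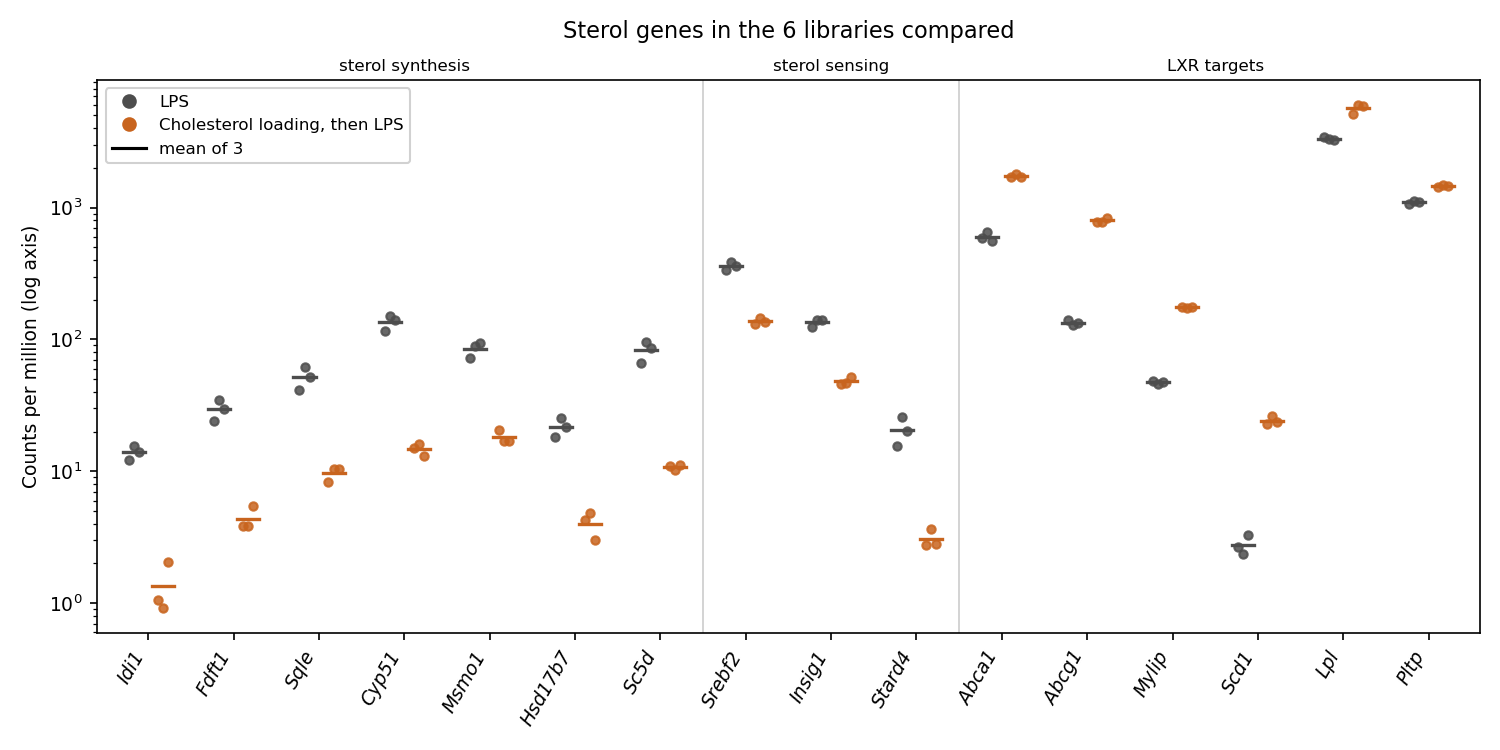
Points are single libraries and bars the means of 3, in CPM on a log axis, for 7 genes of sterol synthesis, 3 of sterol sensing and transport and 6 LXR targets. Loaded libraries lie below LPS libraries for every gene of the first 10, with Msmo1 the least changed (4.67-fold) of the 7 synthesis genes drawn, and above them for the 6 LXR targets, which range from 1.32-fold (Pltp) to 8.78-fold (Scd1).

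The regulators of this pathway fell with it. Of 9 genes of SREBP regulation and lipoprotein uptake only 4 could be tested, and 3 of the 4 (75.0%) were called lower and none higher, with a median of -1.43. Srebf2, which encodes SREBP2 and is itself a target of it, was at 333, 388 and 361 CPM in the LPS libraries and 132, 146 and 137 in the loaded libraries. It was 2.61-fold lower (log2 fold change -1.39 ± 0.09, adjusted p = 1.85e-07), with no overlap. Insig1 anchors the SREBP complex when sterols are plentiful and is also an SREBP target (chromosome 5, 28071412 to 28078662). It was at 124, 141 and 140 CPM without loading and 46.1, 46.9 and 52.1 with it, again without overlap. Its log2 fold change was -1.48 ± 0.07 (adjusted p = 8.74e-09). Stard4, a cytosolic sterol carrier, fell by 2.74 ± 0.20 (adjusted p = 1.07e-06). Mbtps2, a protease that cleaves SREBP, was at -0.10 ± 0.07 (adjusted p = 0.440). Scap, Insig2 and Mbtps1, with 4.94%, 8.67% and 3.41% of their exon bases to themselves, were under the count filter and could hardly be measured. Leaving out any 1 of the 6 libraries left 3 calls for the mevalonate list, 3 for the regulators and 8 or 9 for the late enzymes.

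Promoter letters are shown for members that fell together and hold the same short motif, and for the LXR target Abca1, which holds it and rose. The windows run from 250 bases before to 50 bases after the RefSeq gene start (build GRCm38.p6, the same assembly as mm10), 5′ to 3′ on the strand of the gene. Capitals mark the E-box CACGTG, which reads the same on both strands and is bound by SREBPs among many other helix-loop-helix factors. Insig1 lies at chr5:28071162-28071461 (plus strand), Sc5d at chr9:42264251-42264550 (minus), Hsd17b7 at chr1:169969156-169969455 (minus) and Abca1 at chr4:53159846-53160145 (minus).
Insig1: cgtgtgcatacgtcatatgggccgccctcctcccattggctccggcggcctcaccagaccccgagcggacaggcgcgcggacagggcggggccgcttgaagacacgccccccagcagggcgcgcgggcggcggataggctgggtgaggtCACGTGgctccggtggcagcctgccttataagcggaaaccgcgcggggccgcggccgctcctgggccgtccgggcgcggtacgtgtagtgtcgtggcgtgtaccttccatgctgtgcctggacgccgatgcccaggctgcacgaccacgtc
Sc5d: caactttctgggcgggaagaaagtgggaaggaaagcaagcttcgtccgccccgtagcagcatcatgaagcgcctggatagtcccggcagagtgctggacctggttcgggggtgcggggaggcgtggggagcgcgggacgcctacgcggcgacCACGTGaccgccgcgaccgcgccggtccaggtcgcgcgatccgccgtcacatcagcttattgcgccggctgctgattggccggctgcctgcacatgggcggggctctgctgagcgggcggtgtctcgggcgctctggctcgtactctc
Hsd17b7: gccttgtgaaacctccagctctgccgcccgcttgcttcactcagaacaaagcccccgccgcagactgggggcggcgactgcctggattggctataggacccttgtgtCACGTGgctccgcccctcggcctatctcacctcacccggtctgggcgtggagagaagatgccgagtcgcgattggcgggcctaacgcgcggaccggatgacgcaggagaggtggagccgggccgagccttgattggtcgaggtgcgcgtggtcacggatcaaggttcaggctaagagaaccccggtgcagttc
Abca1: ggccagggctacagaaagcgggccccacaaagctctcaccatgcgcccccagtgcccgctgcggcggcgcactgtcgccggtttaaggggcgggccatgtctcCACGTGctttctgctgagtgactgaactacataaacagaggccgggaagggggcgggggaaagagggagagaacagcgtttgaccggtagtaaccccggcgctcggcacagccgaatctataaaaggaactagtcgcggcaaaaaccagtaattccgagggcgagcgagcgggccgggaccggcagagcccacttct
The first base of the motif lies at -101 in Insig1, -98 in Sc5d, -143 in Hsd17b7 and -147 in Abca1, counted from the gene start. The motif was in 3 of the 10 late enzyme genes with a promoter in the table (30.0%: Dhcr7, Hsd17b7 and Sc5d), in 2 of 6 regulator genes (Insig1 and Scap), in none of 7 mevalonate genes and in 1 of 10 LXR target genes (Abca1). It was in 2349 of all 32851 promoters (7.15%) and in 10.3% of the promoters of genes tested. The full sterol regulatory element, searched on both strands, was in 30 of all promoters (0.0913%) and in none of these lists. Its shorter form TCACNCCAC, chosen after the data were seen, was in 408 (1.24%), among them that of Hmgcs1, which was under the count filter. The LXR direct repeat of AGGTCA half-sites spaced by 4 bases, searched on both strands, was in 5 promoters (0.0152%) and in none of the lists. Only exact matches were searched. Of the 8138 promoters of genes tested, 0 held this repeat and 1 held the full sterol regulatory element. Absence from the lists therefore cannot show that these promoters lack LXR or SREBP sites.

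LXR target genes went the other way. Of 14 tested of 16 listed, 8 (57.1%) were called higher and none lower, with a median log2 fold change of 0.41. The receptors themselves could hardly be measured, since few of their exon bases are their own: 15.5% for Nr1h3, 8.40% for Rxra, 0.198% for Nr1h2 and none for Rxrb. Abcg1, which exports cholesterol to HDL particles (chromosome 17, 31057694 to 31117981), was at 139, 128 and 133 CPM in the LPS libraries and 784, 780 and 839 in the loaded libraries. It was 6.00-fold higher (log2 fold change 2.58 ± 0.08, adjusted p = 4.70e-11), and the groups were far apart. Abca1, which exports cholesterol to lipid-poor APOA1 (chromosome 4, 53030789 to 53159895), was at 591, 654 and 563 CPM without loading and 1711, 1799 and 1717 with it. All 3 loaded libraries lay above all 3 LPS libraries (log2 fold change 1.53 ± 0.12, adjusted p = 1.27e-06). Mylip, a ubiquitin ligase that degrades lipoprotein receptors, was at 48.5, 46.0 and 47.4 CPM without loading and 175, 174 and 178 with it. Its replicates were within a few CPM of each other, and it rose 3.71-fold (log2 fold change 1.89 ± 0.08, adjusted p = 2.80e-09). Scd1, the stearoyl-CoA desaturase (chromosome 19, 44394450 to 44407709), was at 2.66, 2.36 and 3.27 CPM without loading and 22.8, 26.2 and 23.6 with it. That 8.78-fold rise (log2 fold change 3.13 ± 0.18, adjusted p = 7.49e-08) started from a low level. Lpl, lipoprotein lipase, rose by 0.77 ± 0.07 from 3330 ± 77.6 to 5692 ± 464 CPM (SD, n = 3). The phospholipid remodelling enzyme Lpcat3 rose by 0.42 ± 0.08 and the phospholipid transfer protein gene Pltp, with 72.6% of its exon bases to itself, by 0.40 ± 0.06.

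Other LXR targets were not called. Srebf1, the SREBP gene of fatty acid synthesis and a textbook LXR target, was at 118, 128 and 122 CPM without loading and 108, 116 and 116 with it. Its loaded values were slightly lower (log2 fold change -0.11 ± 0.07, adjusted p = 0.343). Apoe was at 0.14 ± 0.12 (adjusted p = 0.505), Smpdl3a at -0.11 ± 0.08 and Scd2 at 0.17 ± 0.25. Mertk (0.39, adjusted p = 0.0952) and Apoc2 (0.53, adjusted p = 0.132) were not called with all libraries and were called without LPS replicate 1 (adjusted p = 0.0116 and 0.0354) and without a count filter (0.0188 and 0.0175). Mertk was also called with library totals alone (0.0260). Arl4c, a small GTPase, was called higher (0.37 ± 0.09, adjusted p = 0.0202). It lost that call without LPS replicate 1, 2 or 3 (adjusted p = 0.0654, 0.0713 and 0.0579) or loaded replicate 1 or 2 (0.0720 and 0.0733). The list had 7 to 9 members called higher when 1 library was left out.

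Genes of other lipid steps were called in both directions. The shares called were 11.1% higher and 11.1% lower for fatty acid synthesis, and 9.09% and 9.09% for cholesterol handling. They were 20% and 10% for lipoprotein uptake and lipid droplets, and 0% and 9.09% for phospholipid synthesis. Of all genes 3.99% were called higher and 4.57% lower. With 9 to 11 genes tested per list, these shares rest on few calls. Pcyt2, which makes the CDP-ethanolamine used for phosphatidylethanolamine, was the only one of 11 phospholipid synthesis genes called. It fell by 1.33 ± 0.12 on the log2 scale, from 26.0 ± 2.96 to 10.4 ± 0.70 CPM (SD, n = 3, adjusted p = 7.02e-06). Of 9 fatty acid synthesis genes Scd1 rose and Fads2, a desaturase, was called lower (-1.56 ± 0.42, adjusted p = 0.0338). Fads2 was at or below 1.74 CPM, and its call ended without LPS replicate 1 or 3 (adjusted p = 0.104 and 0.150) or loaded replicate 2 or 3 (0.109 and 0.132). Fasn, fatty acid synthase, was at -0.57 ± 0.25 (adjusted p = 0.180, or 0.0113 without a count filter), and its groups overlapped. Of 11 cholesterol handling genes Ch25h, which makes 25-hydroxycholesterol, was lower (-0.67 ± 0.14, adjusted p = 0.0105), a call that ended without LPS replicate 1 (adjusted p = 0.0539) or loaded replicate 3 (0.060). Gramd1b, a sterol transporter at membrane contacts, was higher (0.30 ± 0.08), and lost its call without LPS replicate 2 or 3 (adjusted p = 0.0969 and 0.124) or loaded replicate 1 or 3 (0.107 and 0.113). Of 10 genes of lipoprotein uptake and lipid droplets, Olr1, a receptor for oxidised LDL, fell by 0.73 ± 0.13 (adjusted p = 0.00370). The droplet coat gene Plin2 was at 514, 433 and 470 CPM without loading and 446, 402 and 441 with it. Its groups overlapped (log2 fold change -0.14 ± 0.08, adjusted p = 0.348). Lrp1, a large lipoprotein receptor, was called higher (0.57 ± 0.14) but not without LPS replicate 1 or 3 (adjusted p = 0.0733 and 0.0849) or loaded replicate 2 or 3 (0.0795 and 0.0645). Dgat2, a triglyceride synthesis enzyme, was also called higher (0.47 ± 0.13), and lost the call without LPS replicate 1, 2 or 3 (0.0574, 0.105 and 0.103) or loaded replicate 1 or 3 (0.110 and 0.111), in DESeq2 (0.0663) and without a count filter (0.0521).

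Chaperones of the endoplasmic reticulum rose together. Of 17 unfolded protein response genes tested of 21 listed, 11 (64.7%) were called higher and none lower, all 17 had a log2 fold change above 0, and the median was 0.43. Sdf2l1, part of a chaperone complex of the endoplasmic reticulum, was at 21.8, 21.9 and 24.0 CPM in the LPS libraries and 41.0, 42.3 and 40.2 in the loaded libraries. The groups did not overlap (log2 fold change 0.87 ± 0.09, adjusted p = 3.23e-05). Dnajc3, an inhibitor of the kinase PERK and a cochaperone, was at 75.6, 82.5 and 81.6 CPM without loading and 113, 126 and 121 with it (0.59 ± 0.08). The disulfide isomerase genes Pdia6 (0.55), Pdia4 (0.41) and Pdia3 (0.40), the calcium-binding chaperone genes Calr (0.43) and Hsp90b1 (0.47), and Manf (0.52), Dnajb9 (0.51), Hyou1 (0.50) and Creld2 (0.48) also rose. Leaving out 1 library gave 11 or 12 calls, and the list's median lay between 0.40 and 0.51 under all alternatives. The rise was not seen when loading was followed by rHDL and LPS. There 1 of the 17 was called higher and 9 lower, against 18.5% and 17.1% of all genes, with a median of -0.32. Xbp1, Canx and Hspa5 had 1.16%, 0% and 3.13% of their exon bases to themselves, so those central members were hardly or not measured. Stress genes under the factor ATF4 did not share this direction: of 13 tested 1 was called higher and 4 (30.8%) lower, with a median of -0.18. The 4 lower calls became 3, 2 and 1 without LPS replicate 1, 2 or 3 and 2, 2 and 1 without loaded replicate 1, 2 or 3. Slc3a2, the heavy chain of amino acid transporters, had the smallest p of these and fell by 0.93 ± 0.19, at 17.9% own exon bases. None of 13 cytosolic heat shock genes was called.

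**Figure D3:**
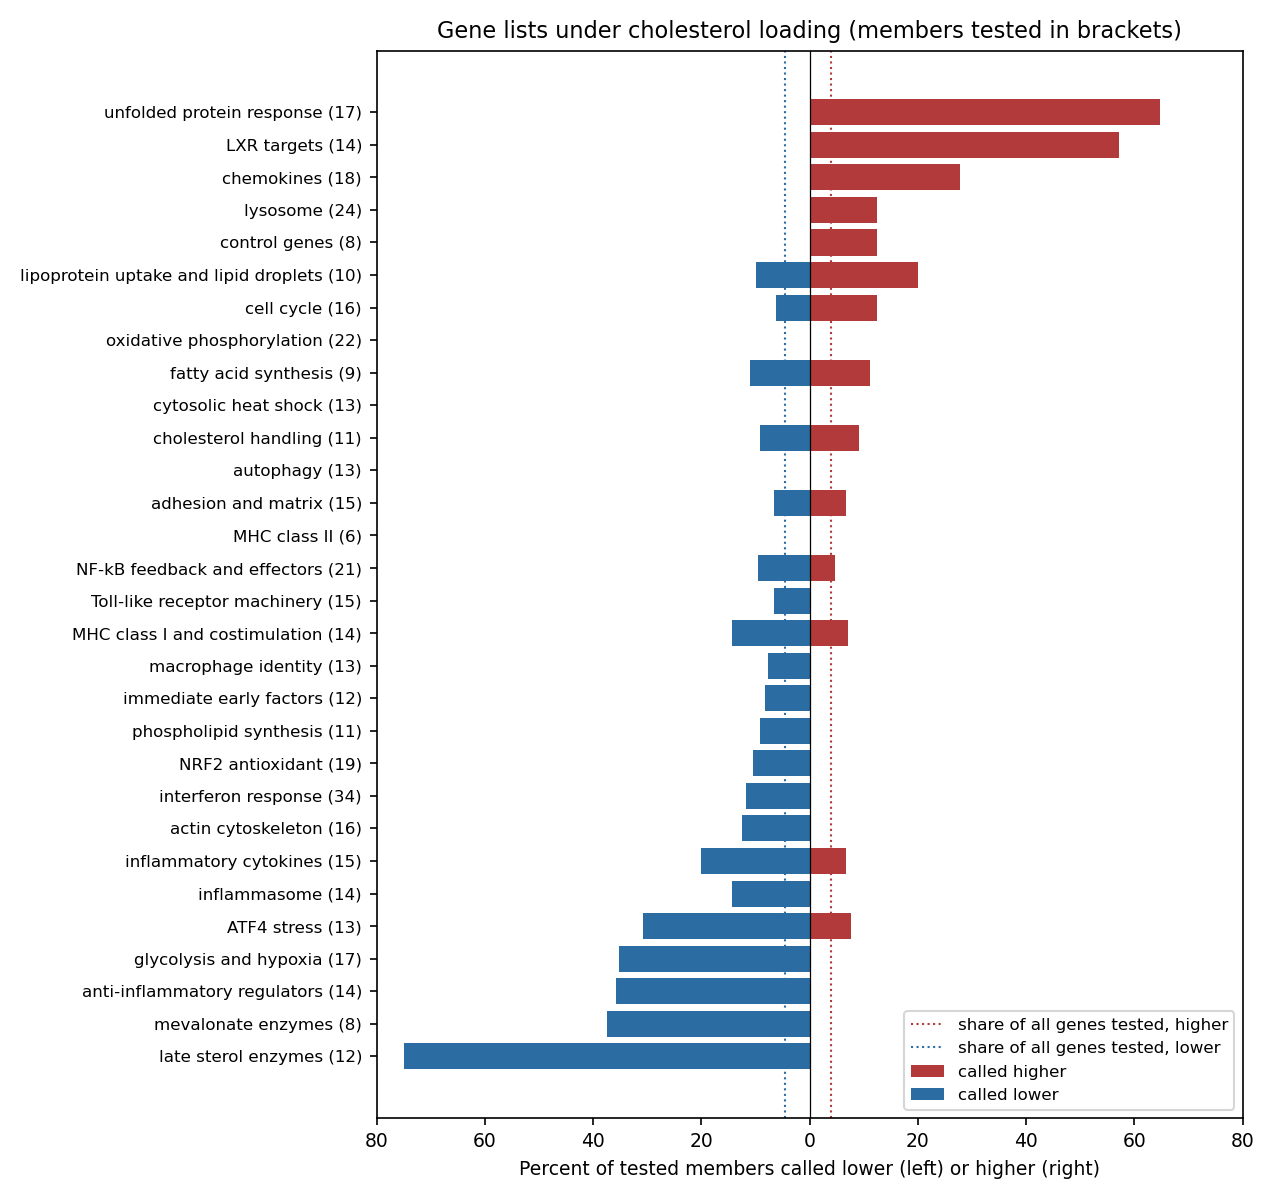
For lists with at least 6 members tested, bars give the percent of members called higher (right, red) or lower (left, blue), with the number tested in brackets, and dotted lines the shares of all genes (3.99% higher and 4.57% lower). The late sterol enzymes (75.0% lower), the unfolded protein response (64.7% higher) and the LXR targets (57.1% higher) reach farthest among the lists drawn.

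Lysosome and mitochondrial genes moved by small amounts, mostly upward. Of 24 lysosome genes 3 (12.5%) were called higher and none lower, with a median of 0.12. Cathepsin D (Ctsd), a lysosomal protease, was at 4420, 4337 and 4474 CPM without loading and 5538, 5699 and 5989 with it, without overlap (0.38 ± 0.06, adjusted p = 0.00243). Neu1, a sialidase, rose by 0.38 ± 0.08. With library totals alone 7 lysosome genes were called higher. The oxidative phosphorylation genes, 22 tested, were all above 0 with a median of 0.15, against 0.01 over all genes. In 14 of the 22 every loaded library was above every LPS library, against 16.8% of all genes. None was called, but 6 were with library totals alone. Gusb, a lysosomal glucuronidase listed among the control genes, rose by 0.57 ± 0.06 (adjusted p = 2.21e-05).

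Inflammatory cytokine genes split. Of 15 tested, 1 (6.67%) was called higher and 3 (20.0%) lower, with a median of 0.01. Tnf and Csf1 were read from only the 2.90% and 5.56% of their exon bases that are their own. Il12a, Il15 and Lif were under the count filter. Il12b, the p40 subunit of IL-12 and IL-23 (chromosome 11, 44400063 to 44414017), was at 171, 183 and 175 CPM in the LPS libraries and 327, 343 and 293 in the loaded libraries. It rose by 0.86 ± 0.09 on the log2 scale (1.82-fold, adjusted p = 2.75e-05), with no overlap. Il1a, interleukin 1 alpha, was at 945, 1050 and 896 CPM without loading and 526, 668 and 638 with it, a fall of 0.66 ± 0.09 (adjusted p = 0.000664). Tnfsf15, a TNF family ligand, was at 458, 303 and 312 CPM and 201, 183 and 244 CPM, a fall of 0.77 ± 0.15 (adjusted p = 0.00658). Neither of these genes overlapped between the groups. Il23a, the other subunit of IL-23, was called lower (-1.26 ± 0.35, adjusted p = 0.0390), with adjusted p-values of 0.118, 0.0822 and 0.0842 without LPS replicate 1, 2 or 3 0.141, 0.0549 and 0.0973 without loaded replicate 1, 2 or 3, and 0.0503 with library totals alone. Il6, a main acute-phase cytokine gene, was at 661, 444 and 506 CPM without loading and 519, 436 and 530 with it. The groups overlapped (-0.12 ± 0.19, adjusted p = 0.766). Il1b was lower in every loaded library (5307 to 5725 CPM) than in every LPS library (6213 to 6835) but was not called (-0.22 ± 0.08, adjusted p = 0.0981); it was called in DESeq2 (0.0385) and with both groups fitted alone (0.0471).

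Several chemokine genes rose. Of 18 tested, 5 (27.8%) were called higher and none lower, with a median of 0.09. Ccl22, a chemokine that attracts regulatory and type 2 T cells (chromosome 8, 94745684 to 94751388), was at 247, 309 and 294 CPM in the LPS libraries and 596, 798 and 794 in the loaded libraries. The groups were well apart (2.58-fold higher, log2 fold change 1.36 ± 0.12, adjusted p = 4.82e-06). Ccl17, which shares its receptor, rose by 1.23 ± 0.21 from a low level, 1.28, 1.36 and 1.42 CPM without loading against 2.69, 3.26 and 3.64 with it. Ccl2, the monocyte attractant, was at 211, 147 and 169 CPM and at 235, 261 and 274 CPM. Its groups did not overlap, and it was called (0.55 ± 0.15, adjusted p = 0.0402), though not without LPS replicate 2 or 3 (adjusted p = 0.136 and 0.132) or loaded replicate 1, 2 or 3 (0.0610, 0.110 and 0.143). Cxcl3, a neutrophil attractant (0.58 ± 0.14), lost its call without LPS replicate 1 or 3 (0.0961 and 0.0940) or loaded replicate 2 or 3 (0.0971 and 0.0733). Ccl9 (0.29 ± 0.07) lost its call without LPS replicate 1 or 3 (0.0688 and 0.0693) or loaded replicate 2 (0.0825). The list's count was 3, 4 and 2 without LPS replicate 1, 2 or 3 and 4, 2 and 3 without loaded replicate 1, 2 or 3. Cxcl1, another neutrophil attractant, was at 321, 434 and 337 CPM and at 315, 436 and 374 CPM, which overlap almost wholly (0.04 ± 0.14, adjusted p = 0.898).

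**Figure D4:**
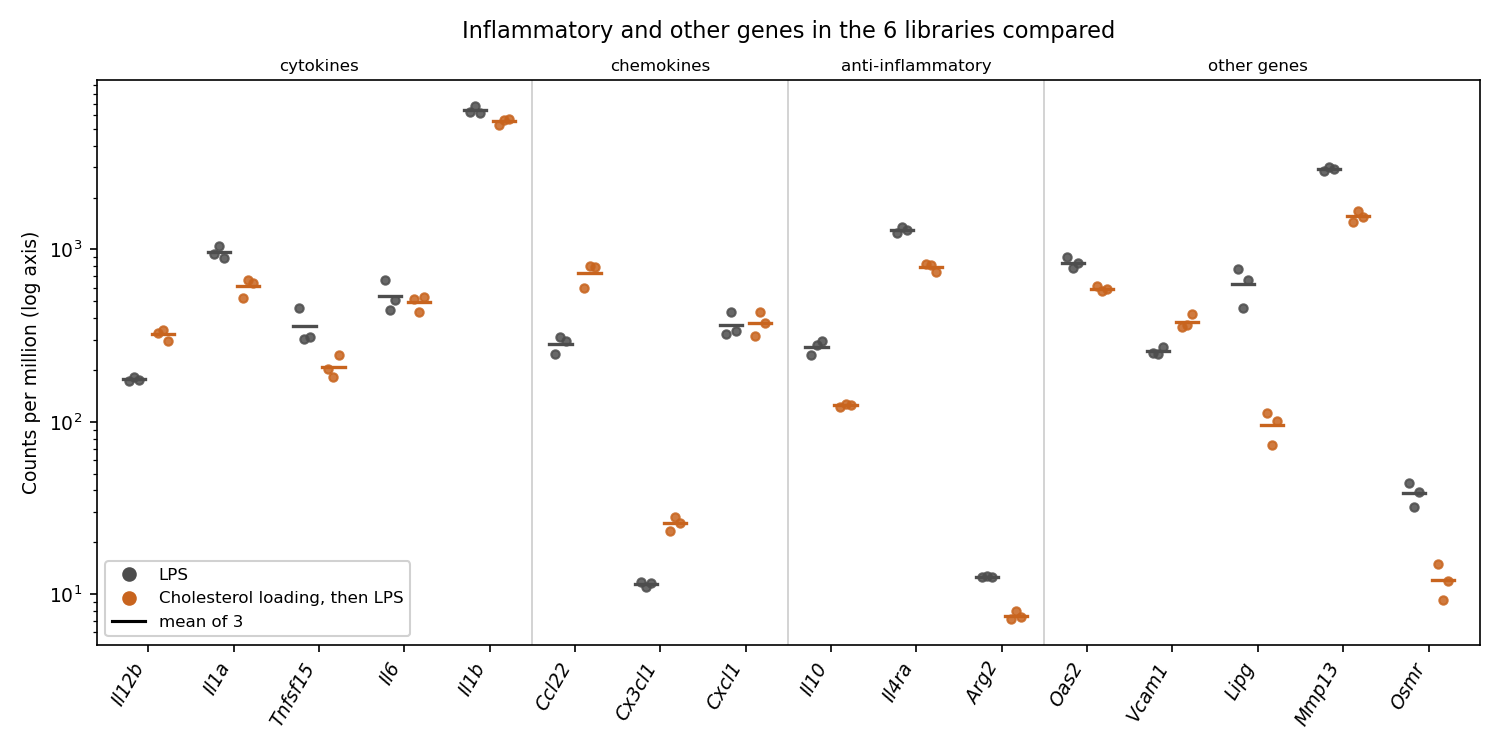
Points are single libraries and bars the means of 3, in CPM on a log axis, for cytokine, chemokine, anti-inflammatory and other genes. Il12b, Ccl22, Cx3cl1 and Vcam1 are higher in all loaded libraries, Il6 and Cxcl1 overlap between the groups, and Il10, Il4ra, Arg2, Lipg, Mmp13 and Osmr are lower in all loaded libraries.

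Among genes that restrain inflammation the calls were all falls. Of 14 anti-inflammatory regulators tested, 5 (35.7%) were called lower and none higher, while the median was -0.08. Il10, the main anti-inflammatory cytokine gene of macrophages (chromosome 1, 131019845 to 131024970), was at 246, 278 and 295 CPM in the LPS libraries and 121, 127 and 125 in the loaded libraries. The loaded values lay close together and well below the LPS values (2.19-fold lower, log2 fold change -1.13 ± 0.13, adjusted p = 6.95e-05). Il4ra, the receptor chain for IL-4 and IL-13, was at 1244, 1354 and 1295 CPM and at 826, 814 and 739 CPM, without overlap (-0.71 ± 0.10). Arg2, the mitochondrial arginase, was at 12.7, 12.7 and 12.5 CPM and at 7.18, 7.95 and 7.38 CPM (-0.75 ± 0.11). Il1rn, the IL-1 receptor antagonist gene, fell by 0.88 ± 0.15, from the 13.4% of its exon bases that are its own. Klf4, a transcription factor, was called lower (-0.74 ± 0.21, adjusted p = 0.0415) but not without LPS replicate 1 or 3 (adjusted p = 0.142 and 0.129) or loaded replicate 1, 2 or 3 (0.0753, 0.157 and 0.0771).

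Interferon-stimulated genes lay below 0 almost throughout, with few calls. Of 34 tested, 33 had a log2 fold change below 0, and the median was -0.32. In 15 every loaded library was below every LPS library, against 16.1% of all genes. Of the 34, 4 (11.8%) were called lower and none higher. Oas2, an antiviral oligoadenylate synthase, was at 900, 776 and 832 CPM in the LPS libraries and 611, 575 and 593 in the loaded libraries. It fell by 0.50 ± 0.09 (adjusted p = 0.00541), with no overlap. The other calls were Ifi205 (-0.58), Stat2 (-0.32) and Oas3 (-0.45). Ifi205 lost its call without LPS replicate 1 or 3 (adjusted p = 0.0918 and 0.0697) or loaded replicate 2 or 3 (0.0936 and 0.0678), Stat2 without LPS replicate 1 or 3 (0.145 and 0.0940) or loaded replicate 1, 2 or 3 (0.0629, 0.138 and 0.106) or with library totals alone (0.0538), and Oas3 without the same 5 libraries (0.160, 0.121, 0.0726, 0.162 and 0.0898). The count was 1, 6 and 1 without LPS replicate 1, 2 or 3 and 2, 1 and 1 without loaded replicate 1, 2 or 3. The summed level of the list was 52918 to 73331 CPM in LPS libraries and 42631 to 52461 in loaded libraries.

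Among other immune genes, Vcam1, an adhesion molecule for leukocytes, rose by 0.57 ± 0.10 (adjusted p = 0.00309) and Icosl, a costimulatory ligand, by 0.62 ± 0.10 (adjusted p = 0.00130). Nos2, the inducible nitric oxide synthase, was called lower (-0.31 ± 0.07, adjusted p = 0.0196) but not without LPS replicate 1 (adjusted p = 0.0996), loaded replicate 1 (0.0547) or loaded replicate 3 (0.114), nor with library totals alone (0.058). Tlr4, the LPS receptor gene, was at 196, 195 and 185 CPM without loading and 164, 174 and 165 with it. The loaded values were lower without passing the test (-0.20 ± 0.07, adjusted p = 0.105, or 0.0352 with both groups fitted alone). H2-Aa, an MHC class II chain, was at -0.43 ± 0.21 (adjusted p = 0.216, or 0.0334 without a count filter), and none of 6 MHC class II genes was called. The lists of these genes are among 14 of signalling, antigen presentation, stress and structure. In each of the 14 at most 2 members were called higher and at most 2 lower, also when 1 library was left out. The lists are short, with 6 to 21 genes tested, so few calls can be a share above that of all genes. The largest shares were 14.3% lower (inflammasome, and MHC class I and costimulation), against 4.57% of all genes. For rises they were 12.5% (cell cycle, and control genes), against 3.99%. In the list of NF-kB feedback and effectors, 17 of 21 genes tested had a log2 fold change below 0, with a median of -0.18. Without overlap 14 of the 21 were lower, against 16.1% of all genes, and 1 was higher.

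Glycolysis genes were lower in part, and single genes outside these pathways changed more. Of 17 glycolysis and hypoxia genes 6 (35.3%) were called lower and none higher, with a median of -0.25. Hk2, the inducible hexokinase, was at 557, 551 and 513 CPM in the LPS libraries and 367, 360 and 328 in the loaded libraries, without overlap (-0.62 ± 0.06, adjusted p = 3.23e-05). Hif1a, the hypoxia-inducible factor, fell by 0.43 ± 0.07 (adjusted p = 0.00203). The count fell to 2 with library totals alone, and to 3, 2 and 3 without LPS replicate 1, 2 or 3 and 2, 3 and 2 without loaded replicate 1, 2 or 3. Mmp13, a collagenase, was at 2856, 3008 and 2938 CPM without loading and 1437, 1683 and 1544 with it, a 1.89-fold fall (-0.92 ± 0.09, adjusted p = 1.28e-05). Ezr, the membrane-actin linker ezrin, fell by 0.89 ± 0.07 from between 434 and 484 CPM to between 249.9 and 254 CPM. Lipg, endothelial lipase, a phospholipase that acts on HDL, was at 773, 458 and 668 CPM without loading and 113, 73.3 and 101 with it. Its replicates spread widely but the groups did not overlap (6.59-fold lower, -2.72 ± 0.27, adjusted p = 2.08e-05). Osmr, the oncostatin M receptor gene, was at 44.0, 32.2 and 39.0 CPM and at 14.9, 9.28 and 11.9 CPM, a fall of 1.66 ± 0.17. Rises of similar size were seen for Cx3cl1, a membrane-bound chemokine (1.17 ± 0.11), Eepd1, an LXR-responsive regulator of cholesterol efflux (1.15 ± 0.19), Apol7c, an apolipoprotein L family member (1.30 ± 0.25), Fscn1, the actin bundler fascin (0.98 ± 0.12), and Zfp422, a zinc finger gene (0.96 ± 0.10).

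The calls were also counted by how each gene responded to LPS itself. The classes come from the first table, where LPS was compared with no treatment in other libraries, and hold genes called there with a log2 change of at least 1. Of 1497 LPS-induced genes tested, 63 (4.21%) were called higher with loading and 198 (13.2%) lower, with a median log2 fold change of -0.13. Of 1373 LPS-repressed genes, 60 (4.37%) were higher and 26 (1.89%) lower, with a median of 0.12. Of 5895 genes in neither class 234 (3.97%) were higher and 176 (2.99%) lower, with a median of 0.02. These are counts of genes, which are not replicates, and no test was made over them. Il12b and Ccl22 above were LPS-induced and rose with loading, and Il10, Oas2, Hk2, Mmp13, Srebf2 and Insig1 were LPS-induced and fell.

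The same loading step was also made before rHDL and LPS, in 6 other libraries of the table that share the fit. There 1659 genes (18.5%) were called higher with loading and 1537 (17.1%) lower. Of the 358 genes higher without rHDL, 120 were also higher after rHDL and 88 were lower. Of the 410 lower without rHDL, 113 were also lower after rHDL and 161 were higher. The difference between both loading effects was called for 2704 genes (30.2%). After rHDL all 12 late sterol enzymes were called lower with loading, and of 14 LXR targets 9 were called higher and 2 lower. Of 34 interferon-stimulated genes 26 were called higher there and 0 lower, against a median below 0 without rHDL. For Abca1 loading raised the level from 58.0, 69.7 and 67.3 CPM to 1014, 1435 and 1398 CPM after rHDL, a log2 fold change of 4.30 ± 0.13. That exceeds the effect without rHDL by 2.77 ± 0.16 (adjusted p = 1.71e-07). The log2 fold changes of Abcg1 and Mylip were also larger after rHDL, by 1.94 ± 0.11 and 1.11 ± 0.11. A larger fold change is not a higher level, and loaded Abca1 was lower after rHDL than without it. Scd1 was lower with loading after rHDL (-0.88 ± 0.21), so its difference was -4.01 ± 0.28 (adjusted p = 4.74e-07). Sqle fell more after rHDL (a difference of -0.72 ± 0.20, adjusted p = 0.0137), and for Cyp51 the difference was 0.05 ± 0.15 (adjusted p = 0.847). Il12b fell with loading after rHDL (-0.76 ± 0.09), against a rise without it, a difference of -1.63 ± 0.12 (adjusted p = 9.02e-07). The differences for Cxcl1 and Ccl2 were -3.01 ± 0.20 and -2.59 ± 0.22, and that for Il6 was -0.09 ± 0.27 (adjusted p = 0.836).

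**Figure D5:**
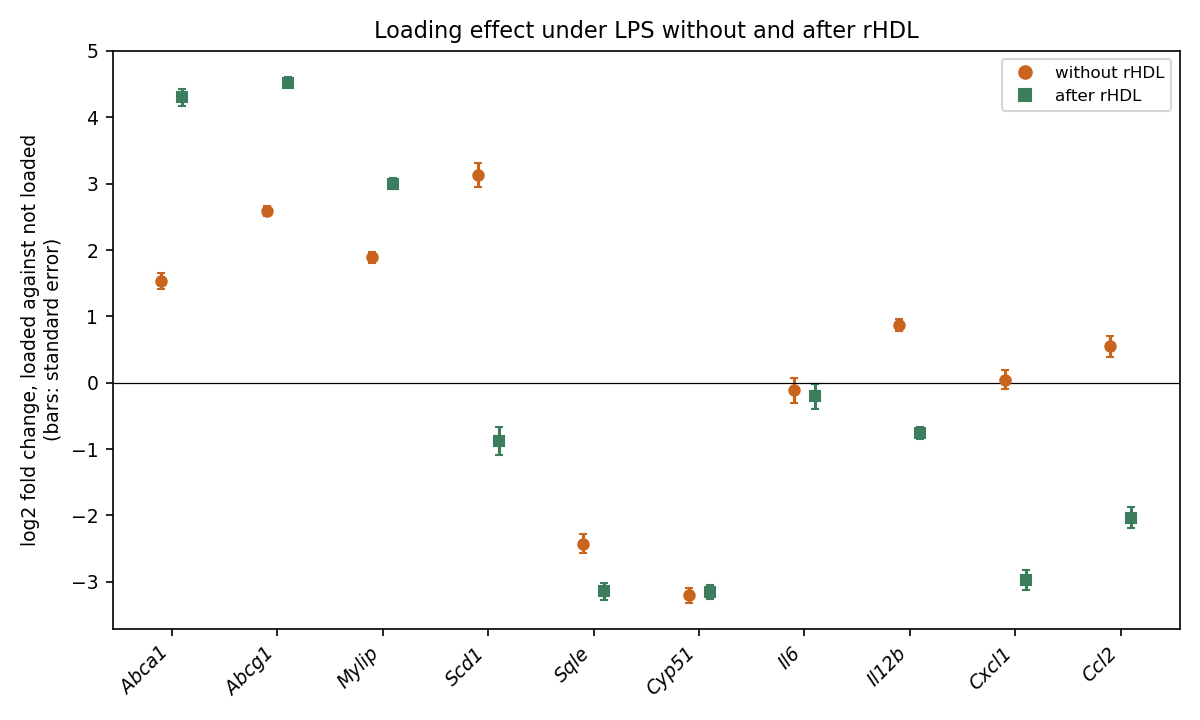
The log2 fold change of loading under LPS, with its standard error, for 10 panel genes, without rHDL (circles) and after rHDL (squares). Scd1 and Il12b change sign between the settings, Abca1, Abcg1 and Mylip rise in both and more after rHDL, and Cyp51 is alike at -3.20 and -3.16.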

How the data were processed

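RNA-seq libraries were made by poly-dT selection from RNA with an integrity number above 8, per the labels' protocols. Per the submitters' processing notes, cutadapt, HISAT2, Subread featureCounts and DESeq2 were used with mm10; no source used here gives versions or settings. The authors deposited raw read counts per transcript row (32850 rows, 24059 gene symbols). Each of the 6696 rows whose exon bases are all shared was at 0 counts, so genes with shared exons are measured in part or not at all. The share of own exon bases is given beside some named genes, and was 13.4% for Il1rn and 17.9% for Slc3a2.

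Rows were summed per symbol and all 12 libraries of the second table fitted together with edgeR 4.0.16 (R 4.3.3): filterByExpr (minimum count 10), TMM scaling, quasi-likelihood tests, Benjamini-Hochberg adjusted p under 0.05 over 8965 genes. CPM are TMM-scaled, ± is the standard error for log2 fold changes and the SD for CPM, and n = 3 libraries per group. In simulated counts, 57 of 100 genes changed by 1.5-fold and 85 of 100 changed by 2-fold were recovered for the loading comparison over 8965 genes, with 6 unchanged genes called. Named genes were, of the called genes without overlap whose log2 CPM averaged 3 or more, the 10 that rose most and the 10 that fell most, leaving out predicted genes, plus up to 4 members per list by p, a panel, and all sterol and LXR members; some further genes were named after their values were seen, and some genes that the rule takes are left out of the text. For the 10 largest rises and 10 largest falls, lack of overlap was a condition of being named and lends them no further support. The members and lists were chosen with earlier results of these data known. Alternatives were DESeq2 1.42.0, its size factors, library totals, 2 other filters, a replicate block, a minimum of 1.5-fold, 2 groups alone, genes with 1 row, a stricter LPS class and leaving out each library. The authors' comparison tables were not used here.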

Additional observations from a re-analysis of the deposited data

Results flagged for a closer look

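The effect of loading differed between cells without rHDL and cells after rHDL in edgeR's test of the difference (log2, after rHDL minus without it, all at an adjusted p under 0.05) for 8 of 10 panel genes. It was positive for Abca1 (2.77), Abcg1 (1.94) and Mylip (1.11). It was negative for Scd1 (-4.01), Cxcl1 (-3.01), Ccl2 (-2.59), Il12b (-1.63) and Sqle (-0.72). Among 5 genes singled out after their values were seen, all lower with loading without rHDL, it was 4.68 for U90926, 4.08 for Selp, 3.85 for Osmr, 3.35 for Il19 and 2.54 for Lipg. The difference subtracts the loading effect without rHDL, so the falls of these 5 genes enter it with a positive sign. It is therefore no separate support for them, and for Lipg it is mostly that fall. Groups of 3 libraries were not screened gene by gene for a single library far from the others.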

How the results depend on the processing

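Of 113 genes named for their result in the main test, 90 were called. Of these, 68 kept their call without each of the 6 libraries and 22 lost it without at least 1. The number of genes higher with loading was 626 with library totals alone, 717 with the replicate number as a block and 9 at a minimum of 1.5-fold, and the number lower was 254, 934 and 23, and 691 with both groups fitted alone. Without 1 library the counts were 158 to 245 higher and 189 to 349 lower. Loading after rHDL gave 415 higher and 266 lower at a minimum of 1.5-fold, and the difference 592; without 1 library they were 1363 to 1743, 1144 to 1570 and 2112 to 2822. With library totals alone 914 genes were LPS-induced and 3856 LPS-repressed (1553 to 1607 and 1824 to 1970 without 1 library). The percent of LPS-induced genes called higher was 5.81 at a class change of at least 2 and 5.88 with library totals, the percent called lower 15.4 and 8.62, and the percent of LPS-repressed genes called higher 6.41 with totals. The cause was not tested, except that a minimum fold asks for larger changes by construction. Same-numbered LPS and loaded replicates deviated together with correlations of 0.18, 0.25 and 0.05, and differently numbered ones with -0.20 to 0.03. Each sample thus correlated best with its own number. The labels do not say what the numbers stand for, and the main fit did not use them. Whether they mark a shared batch was not tested. With the block Apoc2, Mertk, Acat2, Fasn, Il1b, Tlr4 and H2-Aa were also called (adjusted p = 0.00298, 0.00935, 0.0156, 0.00122, 0.0210, 0.0359 and 0.00201). That these genes were not called in the main fit therefore depends on leaving the replicate number out.

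Uncalled values changed sign when 1 library was left out. Their log2 ranges were -0.11 to 0.55 for Scd2, -0.073 to 0.26 for Tm7sf2, -0.084 to 0.18 for Cxcl1 and -0.24 to 0.057 for Il6. They were -0.38 to 0.11 for Lipg after rHDL, -0.31 to 0.11 for the difference of Il6 and -0.032 to 0.15 for that of Cyp51, which was -0.12 with library totals. At this depth the falls of Dhcr7 and Fdps, both under 3 CPM, did not pass the test, while Fads2 at a like level did.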

Other observations

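Among genes with large falls under loading without rHDL, picked after their values were seen, Selp, Il19, Osmr and U90926 rose with loading after rHDL. Lipg did not. Selp, which encodes P-selectin, an adhesion molecule of platelets and endothelium, was at 33.3, 24.4 and 26.9 CPM in LPS libraries and 12.1, 8.26 and 8.96 in loaded libraries, a log2 fold change of -1.52 ± 0.16 (adjusted p = 5.26e-05). After rHDL its levels were 1.07, 1.81 and 1.51 CPM without loading and 8.12, 10.1 and 7.84 with it, a rise of 2.57 ± 0.23 (adjusted p = 1.21e-06). Il19, a cytokine gene of the IL-10 family, was at 91.9, 62.9 and 76.3 CPM and at 31.1, 20.6 and 22.4 CPM (-1.63 ± 0.21), and after rHDL it rose by 1.72 ± 0.22. Osmr fell by 1.66 ± 0.17 without rHDL and rose by 2.19 ± 0.20 after it. U90926 changed by -2.21 ± 0.27 and by 2.48 ± 0.30. Lipg, which fell without rHDL, was after rHDL at 226, 119 and 157 CPM without loading and 174, 99.9 and 167 with it, which overlap (-0.18 ± 0.25, adjusted p = 0.612).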
